A study of Mus musculus and Homo sapiens with 14 samples.

Results

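The genes described are 32 established transcriptional targets of p53, followed by symbol in the deposited mouse and human count tables. The list was given by name and its rule uses no measured value, although it was chosen with earlier results of these data known. All 32 were found among 27179 mouse and 28395 human gene entries, the human forms under the same symbols in capitals, with TP53INP1 for Trp53inp1 and TP53I11 for Trp53i11. RNA sequencing covered 14 libraries in 8 groups and asked what the transcription factor IRF4 does in plasma cells and in tumours of that lineage. In mice of strain C57BL/6, marrow carrying Irf4 flox/- or Irf4 flox/+ was transplanted into congenic hosts, labelled as having uMT marrow, a marrow that makes no mature B cells. Hosts of both donor genotypes received tamoxifen on days 1, 2, 7 and 8, and donor plasma cells were sorted from the spleen on day 14, giving 2 libraries per genotype. Every splenic library thus carries a floxed allele and tamoxifen exposure, and the Cre driver is not given in the sources used here. Cells of MPC-11, a plasmacytoma line from mouse, and of MM.1S, a myeloma line from human, received Cas9 together with a guide RNA to IRF4 or the vector alone, then doxycycline, and were sorted on day 3, giving 2 libraries per condition. Wild-type splenic follicular B cells and plasma cells of the marrow gave 1 library each.

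p53 is a transcription factor that is held at low activity by continuous degradation and is stabilised after DNA damage, oncogene activity or ribosome stress. It binds paired half-sites near its targets, which then restrain the cell cycle, start or prepare apoptosis, repair DNA, adjust metabolism and, through Mdm2 and other feedback genes, switch p53 off again. Plasma cells have left the cell cycle, whereas myeloma and plasmacytoma cells divide, so several of these genes also have roles in differentiation and cycle exit.

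Promoter windows are shown because the half-site is the DNA element that p53 binds, although most of the members' windows held no perfect match. RefSeq windows (GRCm38.p6, the assembly called mm10, from 250 bases before to 50 bases after each start) were held for 25 of the 32 mouse members, in 31 windows. A perfect match to the p53 half-site consensus, a palindromic decamer searched by name on both strands at once, stood in 11 of these windows (35.5%), belonging to 10 members. The same match stood in 8.36% of all 32851 windows. A pair of half-sites with at most 2 mismatches in all and a gap of at most 13 bases stood in 3 member windows (9.68%), those of Cdkn1a, Rps27l and Sesn1, against 2.12% of all windows. A match describes these letters only and is not evidence of binding. The lines below give 6 matches, 5′ to 3′ on the gene's strand, with the half-sites in capitals. For the 3 windows with a pair, a pair with the fewest mismatches is marked. The single half-sites of the feedback genes Mdm2, Ccng1 and Ppm1d follow.
Cdkn1a, chr17:29090881-29090962, plus strand: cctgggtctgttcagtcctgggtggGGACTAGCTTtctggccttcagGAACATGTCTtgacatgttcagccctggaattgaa
Rps27l, chr9:66946271-66946340, plus strand: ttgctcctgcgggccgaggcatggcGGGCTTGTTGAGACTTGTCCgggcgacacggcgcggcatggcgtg
Sesn1, chr10:41887228-41887300, plus strand: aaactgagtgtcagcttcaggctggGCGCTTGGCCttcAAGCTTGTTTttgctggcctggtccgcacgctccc
Mdm2, chr10:117710910-117710969, minus strand: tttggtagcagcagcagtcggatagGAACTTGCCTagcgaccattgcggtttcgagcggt
Ccng1, chr11:40755437-40755496, minus strand: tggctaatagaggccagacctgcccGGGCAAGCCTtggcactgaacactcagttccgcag
Ppm1d, chr11:85311097-85311156, plus strand: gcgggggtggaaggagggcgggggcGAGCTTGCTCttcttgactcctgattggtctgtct
The marked Cdkn1a pair had 0 mismatches and a gap of 12 bases and began 73 bases before the upstream start. That window held 2 pairs. The other joins the second marked half-site to the bases right after it, with 1 mismatch and no gap. A further Cdkn1a window (chr17:29093519-29093818) held 0 half-site matches and 0 pairs. The marked Rps27l pair, 1 of 2 in its window, had 1 mismatch and no gap. The Sesn1 pair had 2 mismatches and a gap of 3 bases. Rps27l and Sesn1 each also had another window without a match.

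Depth ran from 18738283 to 27003585 counts per library in mouse and from 19317115 to 21572315 in human. Both lines had less IRF4 transcript in each guided library than in either control. MM.1S with the guide had 142 and 191 CPM (reads per 1e6 counted, scaled between libraries by TMM), and 489 and 434 with the empty vector. The MPC-11 libraries had 276 and 146 CPM of Irf4 with the guide and 467 and 496 with the empty vector, although the labels call the guided ones Irf4 -/-. The splenic libraries labelled flox/- had 82.6 and 99.8 CPM of Irf4, inside the range of the flox/+ libraries, 114 and 53.8, so directions below refer to the libraries by label. All 10 plasma cell markers had counts in every plasma cell and tumour library, but Mzb1 stood at 0.5 to 3.3 CPM in MPC-11. Macrophage markers summed to 9529 CPM in flox/- library 1, against 963 in flox/- library 2 and 731 and 312 in the flox/+ libraries.

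In MM.1S the p53 targets stood higher with the guide more often than genes at large did, and a small set accounted for the sizes. All 32 were tested, 24 had a fold change above 0 and the median log2 fold change of the list, guide over empty vector and below also called log2 difference, was 0.49, against 50.7% of all 12696 genes above 0 and an all-gene median of 0.01. No member passed the edgeR quasi-likelihood test after adjustment over all genes, which called 0.00788% of genes. At an unadjusted edgeR p under 0.05, 8 members were higher and 0 lower, where 5.42% of all genes were higher and 4.58% lower. DESeq2 called 7 members higher and 0 lower, against 1.52% and 1.4% of all genes. In 17 members both guided libraries lay above both controls and in 2 both lay below, against 22.4% and 18.9% of all genes. The members' median was 0.57 without empty vector library 1 and 0.50 without empty vector library 2. It was 0.43 without guided library 1 and 0.47 without guided library 2.

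TP53I11 (p53-induced protein 11, linked to apoptosis) had the smallest p of the list. It stood at 96.2 and 88.9 CPM in guided libraries 1 and 2 and at 17.1 and 14.3 in the controls. The groups lay far apart, with a log2 difference of 2.56 ± 0.25 (SE over 2 libraries per group; adjusted p = 0.0776 by edgeR and 5.17e-17 by DESeq2). FAS, the death receptor CD95, stood at 19.8 and 21.2 CPM against 5.32 and 4.93. Replicates nearly coincided in both groups, and the log2 fold change was 2.00 ± 0.35 (SE; adjusted p = 0.22 by edgeR and 0.0014 by DESeq2). PHLDA3, a pleckstrin homology protein that restrains Akt, stood at 31.6 and 36.6 CPM against 10.03 and 5.86, and the log2 difference was 2.10 ± 0.36 (SE; adjusted p = 0.22 by edgeR and 3.15e-04 by DESeq2). All 3 genes belong to the death and survival class, of which 10 of 12 members were above 0. The other death receptors were also higher without overlap. EDA2R stood at 10.4 and 17.6 CPM against 4.62 and 9.07, with a log2 difference of 1.03 ± 0.50 (SE; adjusted p = 0.584 by edgeR). It was 0.62 without empty vector library 1, 1.57 without empty vector library 2 and 0.59 without guided library 2. The apoptosome scaffold APAF1 and the tetraspan protein PERP overlapped between groups.

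Among the arrest and growth control genes the members split. ZMAT3, a zinc finger RNA-binding protein, stood at 9.78 and 11.7 CPM with the guide and at 1.54 and 1.19 with the empty vector, the largest log2 fold change of the 32 in MM.1S, 2.97 ± 0.54 (SE; adjusted p = 0.22 by edgeR and 1.07e-03 by DESeq2). PLK2, a polo-like kinase, stood at 50.8 and 86.3 CPM against 12.2 and 20.2, and the log2 difference was 2.08 ± 0.38 (SE; adjusted p = 0.22 by edgeR and 9.82e-05 by DESeq2). BTG2, an antiproliferative cofactor, was abundant in all 4 libraries, at 666 and 539 CPM against 382 and 335, and the log2 difference was 0.75 ± 0.20 (SE; adjusted p = 0.31 by edgeR and 0.016 by DESeq2). In contrast CDKN1A, which encodes the cyclin-dependent kinase inhibitor p21, stood at 263 and 211 CPM with the guide and at 297 and 233 without. Its groups overlapped, with a log2 difference of -0.16 ± 0.22 (SE; adjusted p = 0.898 by edgeR). GADD45A and PLK3 stood lower in both guided libraries than in either control, with log2 fold changes of -0.63 ± 0.27 and -0.69 ± 0.43 (SE; adjusted p = 0.504 and 0.707 by edgeR).

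**Figure D1:**
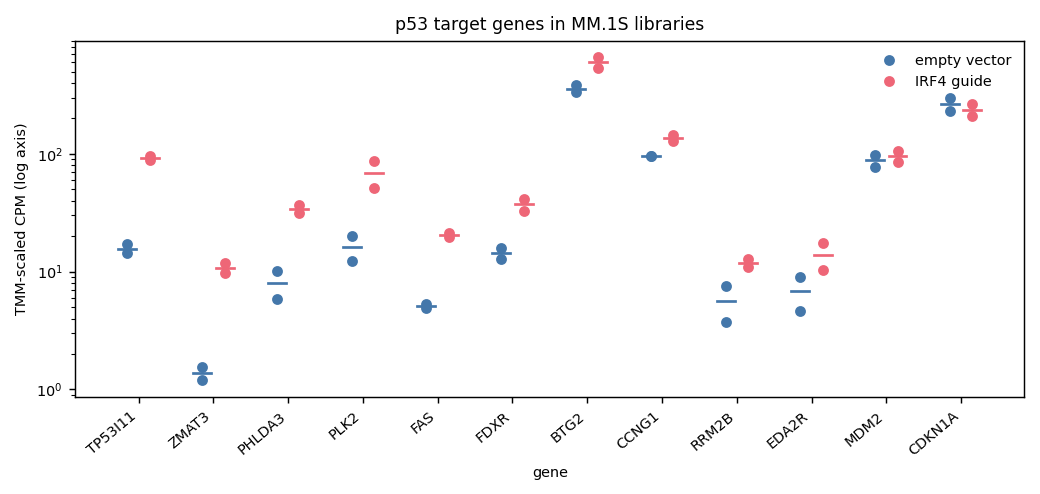
Each point is 1 MM.1S library and each short line the mean of 2, on a log axis of TMM-scaled CPM, for 12 p53 targets with the empty vector or the IRF4 guide. TP53I11, ZMAT3, PHLDA3, PLK2 and FAS separate widely, while MDM2 and CDKN1A overlap.

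All 4 genes classed as feedback were above 0 in MM.1S, with a median log2 fold change of 0.37, and in 2 of them the groups did not overlap. The class includes TP53INP1, which is a cofactor of p53 and not a gene that switches it off. MDM2, the ubiquitin ligase that marks p53 for degradation, stood at 85.8 and 106 CPM with the guide and at 77.9 and 98.7 without. The groups overlapped and the log2 fold change was 0.12 ± 0.24 (SE; adjusted p = 0.934 by edgeR). CCNG1, cyclin G1, stood at 144 and 130 CPM against 95.4 and 95.3, without overlap, a log2 difference of 0.52 ± 0.20 (SE; unadjusted p = 0.0358 and adjusted p = 0.449 by edgeR). TP53INP1, the stress-induced cofactor, stood at 93.8 and 87.3 CPM against 81.6 and 49.4, also without overlap, and the log2 difference was 0.47 ± 0.29 (SE; adjusted p = 0.701 by edgeR). Of the 4 metabolism and stress genes, FDXR, the mitochondrial ferredoxin reductase, stood at 32.9 and 41.4 CPM against 15.9 and 12.8, and the log2 difference was 1.37 ± 0.29 (SE; adjusted p = 0.259 by edgeR and 0.0121 by DESeq2). Among repair genes, the ribonucleotide reductase subunit RRM2B stood at 10.9 and 12.9 CPM against 7.61 and 3.73, and the log2 difference was 1.07 ± 0.49 (SE; adjusted p = 0.546 by edgeR), or 1.67 without empty vector library 1 and 0.62 without empty vector library 2. XPC and DDB2, which recognise damage in nucleotide excision repair, were also higher without overlap, whereas the polymerases POLH and POLK and the endonuclease ERCC5 had log2 fold changes between -0.12 and 0.00.

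Other genes of the pathway in MM.1S did not share one direction. They are read beside all genes, of which 50.7% were above 0. At an unadjusted edgeR p under 0.05, 5.42% of all genes were higher and 4.58% lower. DESeq2 called 1.52% of all genes higher and 1.4% lower. Of 25 regulators of p53 tested, 14 were above 0 and none passed the edgeR test after adjustment, while 0 were higher and 2 lower at an unadjusted p under 0.05. One of the 2 was TP73, a p53 family member, at 4.04 and 2.96 CPM against 14.0 and 10.4. Of 24 further p53 targets tested, 13 were above 0, 4 were higher and 2 lower at an unadjusted p under 0.05, and DESeq2 called 3 higher (GPX1, YPEL3 and TRIM32) and 1 lower, the D-type cyclin CCND2. Among 18 genes repressed through p21 and the DREAM complex, a repressor of cell cycle genes, 15 were below 0, with a median of -0.21. DESeq2 called 2 of these lower, the mitotic transcription factor FOXM1 (47.2 and 48.3 CPM against 79.5 and 87.4) and the mitotic kinase AURKB (88.8 and 90.7 against 131 and 167). T cell markers summed to 325 and 377 CPM with the guide and to 261 and 240 without, of which CD28 made 236 to 371, while CD3D, CD3G and CD4 had 0 counts in all 4 libraries. Their part in the result was not tested.

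In MPC-11 the members as a group stood near the genes at large, and the 2 with the smallest edgeR p were the cycle arrest genes Cdkn1a and Btg2. Of 25 members tested, 15 were above 0 with a median log2 fold change of 0.13, against 48.5% of all 10670 genes and an all-gene median of -0.02. No member passed the edgeR test, which called 0.0187% of genes, and DESeq2 called 0, against 1.03% of genes higher and 0.459% lower. At an unadjusted edgeR p under 0.05, 2 members were higher and 0 lower, against 3.49% and 2.56% of all genes. Both guided libraries lay above both controls in 7 members and below them in 3 (Ppm1d, Aen and Fdxr), against 16.9% and 16.5% of all genes. The median was -0.13 without empty vector library 2, -0.04 without guided library 2 and -0.04 with scaling by library size only, where 11 members were above 0.

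Cdkn1a stood at 373 and 383 CPM with the guide and at 233 and 198 with the empty vector. Both guided libraries were higher than either control, with a log2 difference of 0.81 ± 0.28 (SE over 2 libraries per group; adjusted p = 0.657 by edgeR and 0.167 by DESeq2). Btg2 behaved similarly, at 380 and 339 CPM against 233 and 210, and the log2 difference was 0.70 ± 0.28 (SE; adjusted p = 0.804 by edgeR). All 4 arrest genes tested were above 0, and in 3 of them, with Plk3 as the third, the groups did not overlap. Of the 6 repair genes, 5 were above 0, and in 3 of them, Xpc, Polh and Polk, the groups did not overlap either. The log2 differences of Xpc and Polh were 0.77 and 0.70. Trp53inp1, a stress-induced cofactor of p53, stood at 1082 and 881 CPM against 694 and 618, and the log2 difference was 0.58 ± 0.28 (SE; adjusted p = 0.913 by edgeR). The translesion polymerase gene Polk was low, at 8.48 and 4.05 CPM against 1.02 and 3.79, and the log2 difference was 1.37 ± 1.01 (SE; adjusted p = 1 by edgeR). It was 0.72 without empty vector library 1, 2.63 without empty vector library 2 and 0.74 without guided library 1. Mdm2 stood at 188 and 180 CPM against 217 and 119, so the controls spanned the guided values.

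Several members that separated the MM.1S groups were not measurable in MPC-11. Trp53i11, Phlda3, Plk2 and Gadd45a had 0 counts in all 4 MPC-11 libraries, as did Eda2r, and Tnfrsf10b and Dram1 were too low to test. Fas overlapped between the groups, at 50.5 and 39.2 CPM against 53.8 and 22.9, and Zmat3 overlapped at 6.497 and 9.39 against 3.76 and 9.83.

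Cell cycle genes repressed through p21 and the DREAM complex mostly had lower values in guided MPC-11. Of 18 tested, 16 were below 0 and the median log2 fold change was -0.68, where 48.5% of all genes were above 0. None passed the edgeR test after adjustment. An unadjusted p below 0.05 was reached by 6 that were lower and 0 that were higher, against 2.56% and 3.49% of all genes. DESeq2 called 1 lower, against 0.459% of all genes. That gene was Cdc20, an activator of the anaphase-promoting complex, at 141 and 189 CPM against 374 and 355, and the log2 difference was -1.15 ± 0.30 (SE; adjusted p = 0.528 by edgeR and 0.0198 by DESeq2). Of 24 regulators of p53 tested, 16 were above 0. Of 19 further p53 targets tested, 11 were above 0, including the BH3-only death genes Bbc3 (121 and 131 CPM against 71.8 and 71.0) and Pmaip1 (43.2 and 21.5 against 10.6 and 16.8), each with an unadjusted p below 0.05. Pidd1, a death domain protein, had 0 counts in both guided libraries and stood at 10.98 and 4.70 CPM in the controls, at least 103-fold lower with a floor of 3 counts over the group (DESeq2 adjusted p = 8.56e-05).

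**Figure D2:**
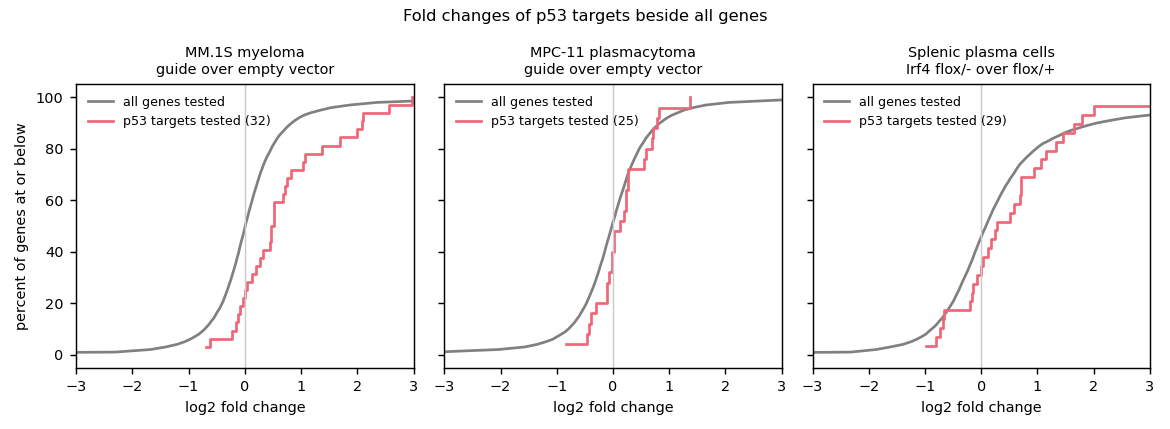
Cumulative percent of genes at or below each log2 fold change, for the p53 targets tested (32, 25 and 29 genes) and for all genes tested, in the 3 comparisons. In MM.1S the p53 target curve lies to the right of the all-gene curve, with medians of 0.49 and 0.01, and in MPC-11 and splenic plasma cells the medians lie closer together. The axes end at 3, and splenic Plk2 at 5.50 lies beyond.

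In splenic plasma cells the members stood near the genes at large. Of 29 tested, 19 were above 0 with a median log2 fold change of 0.28, against 54.3% of all 11887 genes and an all-gene median of 0.09. The edgeR test called 0% of genes and no member, and DESeq2 called 1 member higher, Plk2, against 3.63% of genes higher and 1.69% lower. At an unadjusted edgeR p under 0.05, 3 members were higher and 1 lower, against 8.63% and 3.85% of all genes. Groups did not overlap in 9 members that were higher and 5 that were lower with flox/- (Trp53inp1, Rps27l, Ikbip, Sesn1 and Ddb2), against 25.7% and 18.3% of all genes. With scaling by library size only, the all-gene median moved to 0.98 and the members' median to 1.17, which left the members 0.20 above all genes, against 0.19 with TMM. Under that scaling 28 of 29 members were above 0, as were 90.5% of all genes.

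Plk2 had 2.97 and 5.24 CPM in the flox/- libraries and 0.175 and 0 in flox/+ libraries a and b. This is 263 counts against 3 over 2 libraries each, a ratio of 49.1 with an exact 95% counting interval of 16.6 to 240, and a fitted log2 fold change of 5.50 ± 1.55 (SE over 2 libraries per group; adjusted p = 0.283 by edgeR and 0.0119 by DESeq2). The fitted value was 9.83 without flox/+ library a, where the remaining control has 0 counts. Gadd45a, a growth arrest gene, stood at 6.28 and 8.25 CPM against 2.22 and 2.38, and the log2 difference was 1.66 ± 0.65 (SE; adjusted p = 0.385 by edgeR). Cdkn1a stood at 26.4 and 17.1 CPM against 13.7 and 16.7, where flox/- library 2 exceeded the higher control only narrowly. Its log2 fold change was 0.51 ± 0.40 (SE; adjusted p = 0.739 by edgeR) and was 0.17 without flox/- library 1 and 0.79 without flox/- library 2.

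Among death and survival genes, Apaf1 stood at 8.72 and 8.72 CPM in flox/- and at 3.33 and 1.69 in flox/+, a log2 difference of 1.79 ± 0.66 (SE; adjusted p = 0.357 by edgeR). Its annotated gene body (chromosome 10, 90989311 to 91082743) overlaps by a few bases at its start with Ikbip (91082737 to 91102613), and the strand setting of the counting is not given in the sources used here. Phlda3 stood at 9.93 and 8.91 CPM against 0.468 and 4.18, and the log2 difference was 2.01 ± 1.06 (SE; adjusted p = 0.559 by edgeR). It was 1.17 without flox/+ library a and 4.31 without flox/+ library b. Rps27l, a ribosomal protein gene whose reads may be shared with its close relative Rps27, went the other way, at 35.1 and 23.2 CPM against 55.5 and 59.4. Its groups were well apart, with a log2 difference of -0.98 ± 0.35 (SE; adjusted p = 0.336 by edgeR). The sestrin gene Sesn1, which restrains mTORC1, and Trp53inp1, the stress-induced cofactor of p53, were likewise lower in both flox/- libraries. The polymerase gene Polh stood at 2.32 and 2.82 CPM against 1.87 and 0, and its log2 fold change of 1.46 ± 1.80 (SE) was 0.45 without flox/+ library b and 9.16 without flox/+ library a, where the remaining control has 0 counts. Mdm2 overlapped, at 58.9 and 47.9 CPM against 55.7 and 42.9.

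Markers of other cells moved with the genotype label. Follicular B cell markers summed to 592 and 976 CPM in flox/- and to 241 and 268 in flox/+. T cell markers reached 249 and 595 CPM in flox/-, where flox/+ had 95.7 and 144. For NK cells the sums were 55.9 and 135 CPM against 14.8 and 22.0, with Ncr1 at 0 counts in all 4 libraries. The erythroid sums were 871 and 49.5 CPM against 44.2 and 4.89, and plasma cell markers were lower, at 36694 and 34005 against 79989 and 99660. All 14 macrophage markers had counts in flox/- library 1 and 13 in flox/- library 2, against 13 and 11 in the flox/+ libraries. In libraries of sorted cells, fewer cells of a type and less RNA per cell cannot be told apart. The part of these markers in the members' values was not tested. Without flox/- library 1 the log2 differences were 5.84 for Plk2, 1.84 for Gadd45a, 1.80 for Apaf1, 1.93 for Phlda3 and -1.31 for Rps27l, and of these the one for Phlda3 was smaller in size than with it. The B, T and NK cell sums were higher in flox/- library 2. Without that library the log2 differences were 5.01 for Plk2, 1.44 for Gadd45a, 2.08 for Phlda3 and -0.72 for Rps27l. Of these, only the one for Phlda3 was not smaller in size than with it. Gdf15, a secreted stress cytokine, had 264 counts in flox/- library 1 and 2, 0 and 7 in the other splenic libraries, and was not tested.

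Other pathway genes in the spleen are read against the 54.3% of all genes above 0. Of 24 regulators tested, 17 were above 0 (70.8%), with 1 higher and 0 lower at an unadjusted edgeR p under 0.05. Of 22 further p53 targets 13 were above 0 (59.1%), a share near that of all genes, with 4 higher and 0 lower at an unadjusted p under 0.05, where 8.63% and 3.85% of all genes were. Ephx1, an epoxide hydrolase, stood at 54.0 and 51.4 CPM against 9.30 and 12.4, and the log2 difference was 2.28 ± 0.35 (SE; adjusted p = 0.26 by edgeR and 1.17e-05 by DESeq2). Pidd1 had 0 counts in both flox/+ libraries and stood at 2.60 and 6.11 CPM in flox/-, at least 52.3-fold higher with a floor of 3 counts over the group (DESeq2 adjusted p = 6.07e-04). Of 16 genes repressed through p21 and DREAM, 12 were above 0 with a median of 1.04, the sign opposite to that in both lines, a difference that was not tested.

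**Figure D3:**
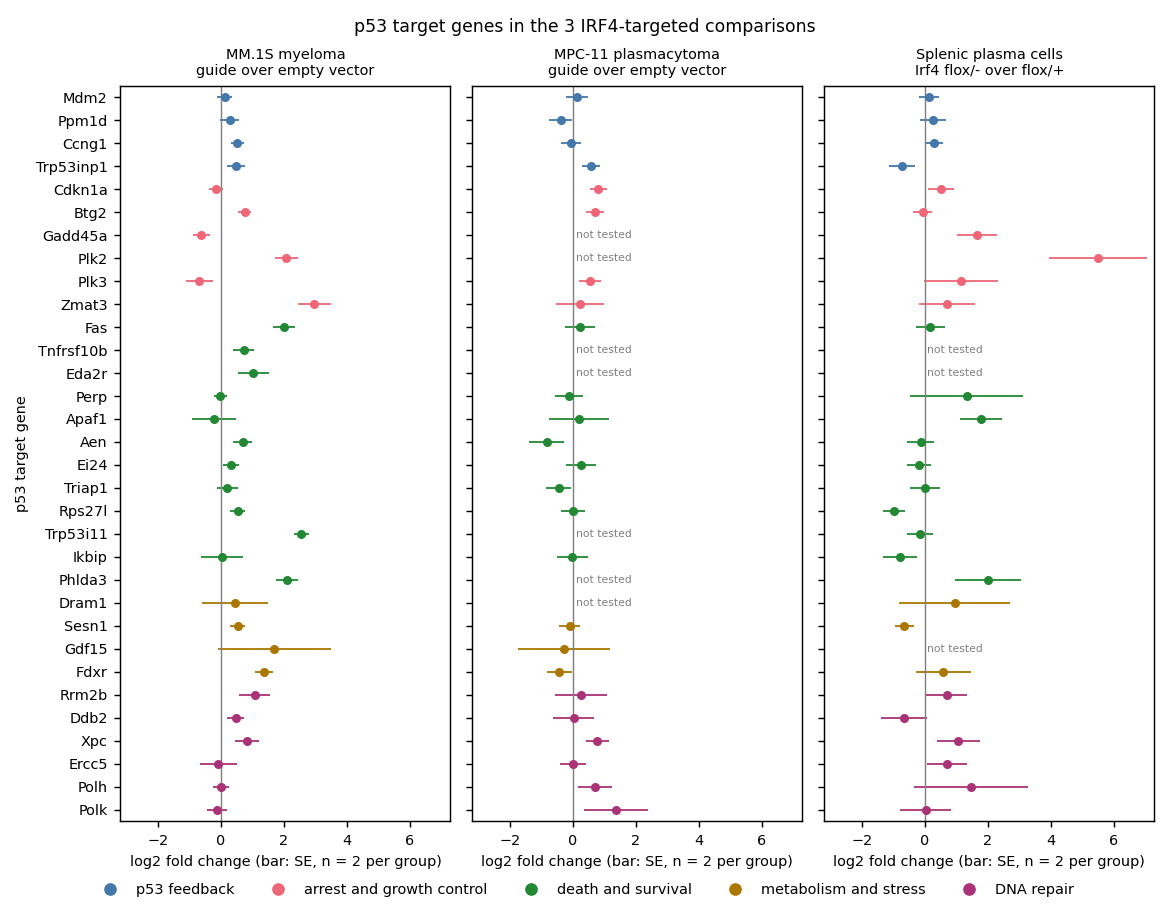
Log2 fold change (point) and SE (bar) from edgeR for each of the 32 p53 targets, coloured by role, in MM.1S, MPC-11 and splenic plasma cells, with 2 libraries per group. ZMAT3, TP53I11, PHLDA3, PLK2 and FAS lie at 2.00 or above in MM.1S, whereas Cdkn1a is above 0 in both mouse comparisons and at -0.16 in MM.1S.

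Side by side, 24 members were tested in all 3 comparisons. Of these, 5 had fold changes above 0 in all 3, namely Mdm2, Zmat3, Fas, Rrm2b and Xpc, and 0 below in all 3. Mdm2 overlapped between groups in all 3, and in each its sign changed when single libraries were left out. No member was higher without overlap in all 3, and 3 were so in both lines, namely Btg2, Trp53inp1 and the repair gene Xpc. Of all genes, 16.9% were higher without overlap in MPC-11 and 22.4% in MM.1S, and the share in both was not counted. Members had the same sign in MPC-11 and MM.1S in 12 of 25, in splenic plasma cells and MM.1S in 11 of 29, and in splenic plasma cells and MPC-11 in 14 of 24. Pearson's r across members was -0.21, 0.19 and 0.18 in that order, and Spearman's rank correlation was -0.22, -0.12 and 0.18. The sign for splenic plasma cells and MM.1S thus depended on the measure. Both are given as a description, since genes are not independent replicates. An interaction contrast set the splenic effect against the MPC-11 effect for 30 members, and in it edgeR called 0% of genes. Plk2, Phlda3, Gadd45a and Trp53i11 had 0 counts in every MPC-11 library, so the contrast could not call them. No member passed, the smallest edgeR adjusted p was 0.751, DESeq2 called 0 members against 1.32% of genes, and 1 member had an unadjusted p under 0.05 where 6.21% of genes did. That member was Trp53inp1, at -1.30 ± 0.53 (SE) for splenic plasma cells minus MPC-11.

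With TMM scaling, members differed between the MPC-11 line and primary cells no more often than genes at large did, although some had 0 counts in MPC-11. The controls of both sets were compared, empty vector MPC-11 over splenic flox/+, using libraries that also serve in the comparisons above. Of 27 members tested, edgeR called 2 higher and 2 lower in MPC-11, against 12% and 15.6% of all 11465 genes, or 27.7% in both directions. Both MPC-11 libraries lay above both splenic ones in 8 members and below them in 9, against 33% and 33.5% of all genes. An unadjusted p below 0.05 was reached by 4 higher and 2 lower members, against 18% and 20.5% of all genes, and DESeq2 called 2 and 3, against 14.6% and 19.5%. Cdkn1a rose, at 127 and 110 CPM in MPC-11 against 18.5 and 24.5 in splenic plasma cells, a log2 difference of 2.46 ± 0.41 (SE over 2 libraries per group; adjusted p = 0.0055 by edgeR). Perp also rose, at 15.6 and 9.85 CPM against 0.866 and 0, and the log2 difference was 4.86 ± 1.43 (SE; adjusted p = 0.0424 by edgeR). It was 3.88 without flox/+ library b and 11.53 without flox/+ library a, where the remaining splenic control has 0 counts. Trp53i11 fell from 525 and 685 CPM to 0 counts in both MPC-11 libraries, at least 14915-fold lower with a floor of 3 counts over the group (edgeR adjusted p = 1.95e-04). Gadd45a fell from 2.99 and 3.49 CPM to 0 counts, at least 79.9-fold lower (edgeR adjusted p = 0.00878). The members' median of 0.27 was 0.051 without flox/+ library a and 0.29 without flox/+ library b. It was -0.087 without MPC-11 library 1 and 0.31 without MPC-11 library 2. Perp and Gadd45a no longer passed the edgeR test without MPC-11 library 1 (adjusted p = 0.216 and 0.0892) or without MPC-11 library 2 (0.105 and 0.0999). Scaling by library size only moved the all-gene median to 1.86 and the members' median to 2.11. It called 17 of 27 members, against 6385 of 11465 genes.

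Among the genes repressed through p21 and DREAM, 18 of 18 were above 0 in MPC-11 against splenic plasma cells and edgeR called 14 higher, against 49.5% and 12% of all genes.

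Across all 10 mouse libraries, scaled together, Cdkn1a stood at 0.863 CPM in follicular B cells, 10.4 in bone marrow plasma cells, 21.7 and 27.1 in splenic flox/+, 42.3 and 27.2 in flox/-, 147 and 121 in MPC-11 with the empty vector and 232 and 234 with the guide. The order is thus B cells, primary plasma cells, then MPC-11, and the splenic genotypes differ by little at their nearest libraries. Trp53i11 ran otherwise, at 268 CPM in follicular B cells, 585 in bone marrow plasma cells, 416 to 804 in the 4 splenic libraries and 0 in all 4 MPC-11 libraries. Trp53inp1 stood at 31.8 CPM in follicular B cells and between 358 and 830 in every other mouse library. On the deposited per-length scale, log2 FPKM, Trp53i11 was the highest member in splenic flox/+ cells at 8.64 ± 0.03 (SD, n = 2), followed by Rps27l at 8.57 ± 0.04 (SD), values that differ by little more than their spread. In MPC-11 with the empty vector the order began with Rps27l at 8.81 ± 0.50, Trp53inp1 at 7.28 ± 0.02 and Cdkn1a at 7.02 ± 0.07 (SD, n = 2). In MM.1S with the empty vector it began with BTG2 at 7.03 ± 0.20, CDKN1A at 6.64 ± 0.29 and EI24 at 6.10 ± 0.43 (SD, n = 2), neighbours whose ranges come close without overlapping.

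**Figure D4:**
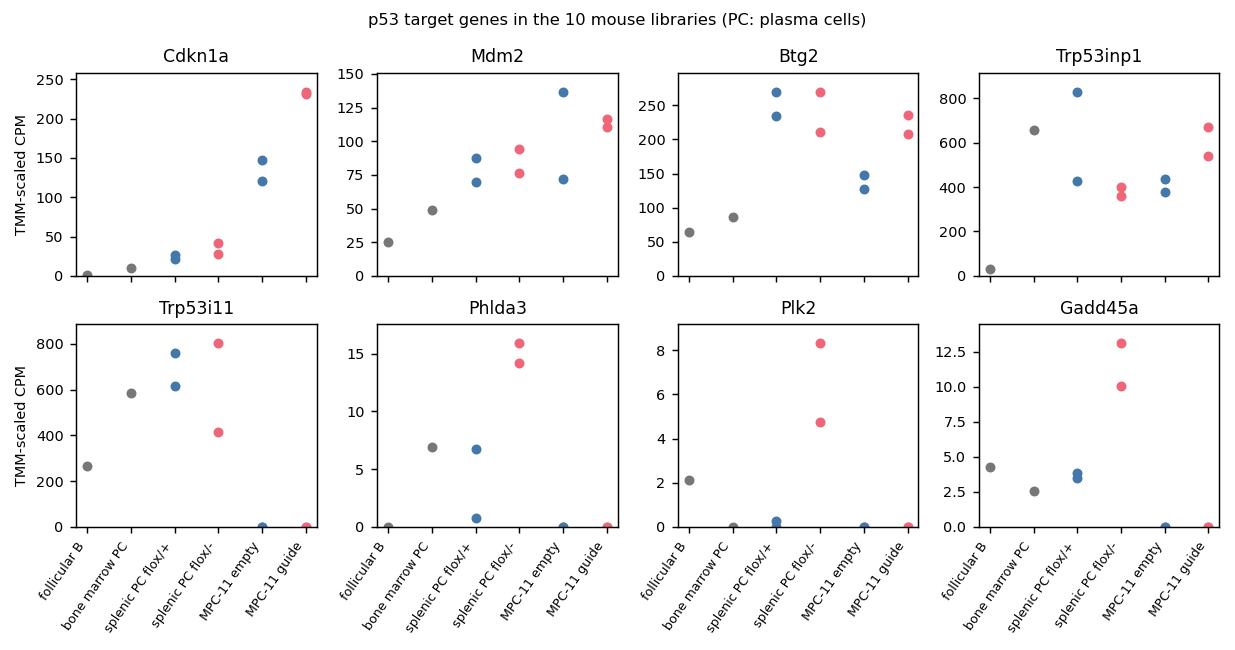
TMM-scaled CPM of 8 p53 targets in each of the 10 mouse libraries, 1 point per library, on linear axes that start at 0. Cdkn1a is highest in MPC-11, where Trp53i11, Phlda3, Plk2 and Gadd45a have 0 counts.

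Plasma cells of the marrow and follicular B cells were each 1 library, so no test was made and intervals cover counting error only. At a CPM of at least 1 in either library, 8 members were more than 2-fold higher in bone marrow plasma cells and 4 more than 2-fold lower, against 26.3% and 22.3% of 11622 genes. Another 16 were within 2-fold and 4 were under the minimum. Trp53inp1 stood at 657 CPM (exact Poisson 95% interval 642 to 672) against 31.8 (30.1 to 33.6), a ratio of 20.6. Cdkn1a stood at 10.4 CPM (8.62 to 12.5) against 0.863 (0.597 to 1.21), a ratio of 12.1. Phlda3 had 76 counts, or 6.90 CPM, (5.44 to 8.63) against 0 counts (0 to 0.0936 CPM by the same interval). The others that were higher were Zmat3, Rps27l, Trp53i11, Ikbip and Gdf15. Those that were lower were Plk2, Triap1, a mitochondrial protein that restrains apoptosis, Sesn1 at 37.7 CPM against 82.2, and Rrm2b.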

How the data were processed

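The members and gene lists were chosen with earlier results of these data known. Per the labels' protocols, RNA was column-purified and libraries were made with a transposase kit, and per the submitters' processing notes Subread 1.6.0, featureCounts and limma were used with builds mm10 and hg38; no strand setting, annotation or filter is given in the sources used here. The authors deposited whole-number counts per gene and, per library, log2 FPKM values whose offset is not described (7 of 10 mouse libraries share the same highest value). Entries without a symbol, 958 in mouse and 450 in human, stayed out of tests and library sizes; their share was at most 0.306% in any library. The 2 flox/+ count columns share a name and are called a and b.

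For each comparison, edgeR 4.0.16 (R 4.3.3) was run on its 4 libraries alone (TMM, filterByExpr with a minimum count of 10, quasi-likelihood F test, Benjamini-Hochberg adjustment over all genes tested, threshold 0.05). Log2 fold changes or differences give targeted over control. A group does not overlap another where both its libraries lie beyond both of the other. DESeq2 1.42.0 on the same genes and limma 3.58.1 on log2 FPKM were alternatives, with other scalings, no filter, 1 fit over all mouse libraries, a replicate block and each library left out. Scripts were tested on simulated data. Members were described by library where the unadjusted edgeR p or DESeq2 adjusted p was under 0.05 in any IRF4-targeted comparison, or where groups did not overlap, the log2 fold change was at least 1 in size and a mean CPM at least 1. Cdkn1a and Mdm2 are always given. A further gene under that rule is not reported here. Genes of the other lists followed the same rule, with at most 6 eligible per list and some given by count only. Members named for contrast beyond that rule were chosen after their values were seen. Nothing says that libraries of one group came from separate animals or cultures, so p-values measure only the spread between these samples, which may be technical. Floors and intervals cover counting error only.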

Additional observations from a re-analysis of the deposited data

Results flagged for a closer look

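In 8 members, both targeted libraries lay on one side of both controls in a mouse comparison and on the opposite side in MM.1S. Of all genes, 25.7% were higher and 18.3% lower without overlap in splenic plasma cells. The shares were 16.9% and 16.5% in MPC-11, and 22.4% and 18.9% in MM.1S. The share of all genes on opposite sides was not counted. The libraries of mouse and human are in separate tables, so the difference was not tested, and none of these values passed the edgeR test after adjustment. With scaling by library size only, 28 of 29 splenic members were above 0, as were 90.5% of all genes. Most of the lower splenic values below thus depend on TMM scaling. Against splenic plasma cells, the log2 fold changes were -0.74 in the spleen and 0.47 in MM.1S for Trp53inp1, 1.66 and -0.63 for Gadd45a, -0.98 and 0.52 for Rps27l, -0.65 and 0.53 for Sesn1, and -0.67 and 0.47 for Ddb2. Against MPC-11, they were 0.54 in MPC-11 and -0.69 in MM.1S for Plk3, -0.84 and 0.68 for the apoptosis-enhancing nuclease gene Aen, and -0.43 and 1.37 for Fdxr.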

How the results depend on the processing

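edgeR, fitted as described, called 0 genes in splenic plasma cells, 2 in MPC-11 and 1 in MM.1S. DESeq2 called 632, 159 and 371, with 1, 0 and 7 members. Scaling by library size only gave 0 genes and a members' median of -0.037 in MPC-11, a median of 1.17 in splenic plasma cells, and, for MPC-11 against splenic plasma cells, 6385 genes, 17 members and a median of 2.11. Without the low count filter, 32 genes were called in MPC-11 and 289 in MM.1S, with 6 members in MM.1S, and the median was 0.55 in splenic plasma cells and 0.18 between MPC-11 and splenic plasma cells. limma on log2 FPKM called 0 genes in MPC-11 and 9 in MM.1S with 1 member (TP53I11), with medians of 0.13 in splenic plasma cells and 0.10 between MPC-11 and splenic plasma cells. A fit over all 10 mouse libraries called 5 genes in splenic plasma cells and 6 in MPC-11, with medians of 0.51, 0.00 and 0.14. With the replicate number as a block, 0 genes were called in MPC-11, and 208 genes with 5 members in MM.1S. Same-numbered libraries correlated at -0.11 in MPC-11, where the crossed pairing, chosen after seeing the data, called 1 gene, and at 0.13 in MM.1S. No paired analysis was possible for the spleen because its flox/+ columns carry no replicate number.

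With each library left out in turn, genes called ranged from 1 to 37 in MPC-11, from 0 to 966 in MM.1S and from 1472 to 3081 between MPC-11 and splenic plasma cells. Members called ranged from 0 to 10 in MM.1S and from 2 to 7 between MPC-11 and splenic plasma cells. The median ranged from -0.13 to 0.28 in MPC-11, from 0.43 to 0.57 in MM.1S and from -0.087 to 0.31 between MPC-11 and splenic plasma cells. Signs changed for Mdm2 (-0.065 to 0.31) and Irf4 (-0.33 to 0.76) in splenic plasma cells, Mdm2 (-0.22 to 0.63) in MPC-11, and MDM2 (-0.050 to 0.28) and CDKN1A (-0.35 to 0.030) in MM.1S. The cause was not tested. With 2 libraries per group, residual spread rests on 2 degrees of freedom, and genes under a few CPM are limited by depth.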
